A study of Homo sapiens with 27 samples.

Results

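RNA levels of 32 genes of cholesterol and fatty acid synthesis were followed in T47D cells that express truncated GATA3. The genes were chosen by name, as enzymes of the sterol and fatty acid pathways and the regulators that set them, with earlier results of these data known. They are 32 of the 26485 genes in the count file, and all 32 were among the 14789 genes that passed a filter on low counts (at least 290 fragments in every library, the lowest being INSIG2). They comprise 7 genes of the mevalonate steps, 10 of the steps from squalene to cholesterol, 6 regulators and sterol carriers of the SREBP system, 3 genes of fatty acid synthesis, and 6 of desaturation, elongation and activation. The list does not hold every enzyme of either pathway.

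T47D is an established line of luminal breast cancer. Cells were transduced with a lentivirus carrying a GATA3 truncation mutant fused to 3xTy1 (Splice del, C321fs or A333fs) or the empty vector (control), and selected with puromycin. RNA was sequenced from each of the 4 cell pools in 3 libraries, 12 in all, at a passage below 10. Splice del carries a deletion at a splice site and loses the second zinc finger, and C321fs and A333fs are frameshifts within that finger. All mutant cells also still made wild-type GATA3. The study describes 1 line of cells for each mutant and does not state the number of transductions. The mutant cannot be told apart from any other property of its cell pool, and p-values measure the spread between these libraries. The sample descriptions give a DMEM-F12 medium with 15% serum and insulin-transferrin-selenium on collagen, whereas the study's methods give a DMEM medium with less serum, and the medium of these libraries, which bears on lipid synthesis, is therefore not settled.

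Cholesterol is built from acetyl-CoA through mevalonate and squalene, and fatty acids are built from cytosolic acetyl-CoA by carboxylation and repeated elongation. The transcription factors SREBP-1 and SREBP-2, made from SREBF1 and SREBF2, activate genes of both pathways. SCAP carries their precursors from the endoplasmic reticulum to the Golgi for cleavage when sterols are low, and the INSIG proteins hold SCAP back when sterols are high. Breast cancer cells are known for an active fatty acid synthase.

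The libraries held 27872208 to 36788024 gene counts each. Levels are CPM, that is counts scaled to the library size after TMM normalisation. Adjusted p-values come from quasi-likelihood F-tests in edgeR, corrected over the 14789 tested genes by the method of Benjamini and Hochberg, and a log2 fold change is that of the first group over the second. "Rose" and "fell" are used for an adjusted p below 0.01, and a gene was "called" where its fold change was also above 1.5. Read counts of bulk cells cannot tell fewer cells of a type from less RNA per cell. All 10 luminal markers (such as KRT8, EPCAM and ESR1) were above 1 CPM, but their summed level was 20189 to 23438 CPM in control and 13921 to 16718 CPM in mutant libraries. Summed fibroblast markers, 6 genes of which at most 3 exceeded 1 CPM, were 53.4 to 65 CPM in control and 33.6 to 52.0 CPM in mutant libraries. Of 5 immune markers at most 2 exceeded 1 CPM, and PTPRC and MS4A1 were at 0 in every library. The immune markers summed to 3.46 to 5.48 CPM in control and 3.73 to 5.96 CPM in mutant libraries. The 4 adipocyte markers summed to at most 0.731 CPM. GATA3 itself was at 1247 to 1340 CPM in control and 962 to 1155 CPM in mutant libraries, where its counts also hold fragments of the introduced mutants. The part of the marker and GATA3 levels in the results was not tested. The slope of log2 CPM over the GC content of exons ran from 0.11 to 0.19 per 10 percentage points in the control libraries and -0.22 to 0.013 in the 9 mutant libraries. The libraries carry no batch label, and the trend and the mutants cannot be told apart. For this reason changes of the 32 genes against control are also given after the GC and length trend of each library was taken out (the corrected value below).

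In control cells the level per kilobase of exon was highest for SCD, the delta-9 desaturase, at 419.7 ± 13 CPM per kb (SD, n = 3). FASN, the fatty acid synthase, followed at 293 ± 16.6 CPM per kb. A group of DHCR7 (145 ± 14), EBP (136 ± 7.66), ACLY (133 ± 3.98), PMVK (125 ± 7.39) and FDFT1 (122 ± 7.48 CPM per kb) came next. In that order neighbours lay closer together than the larger of their 2 SDs, except that ACLY and PMVK lay slightly further apart. SCD and FASN thus stood apart from every other member. The lowest levels were those of ELOVL6 (7.96 ± 0.456), HSD17B7 (6.82 ± 0.270), INSIG2 (4.02 ± 0.149) and STARD4 (3.61 ± 0.292 CPM per kb). In mutant cells FASN stood lower, at 176 ± 21.1 (Splice del), 139.5 ± 11.1 (C321fs) and 154 ± 12.6 CPM per kb (A333fs).

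**Figure D1:**
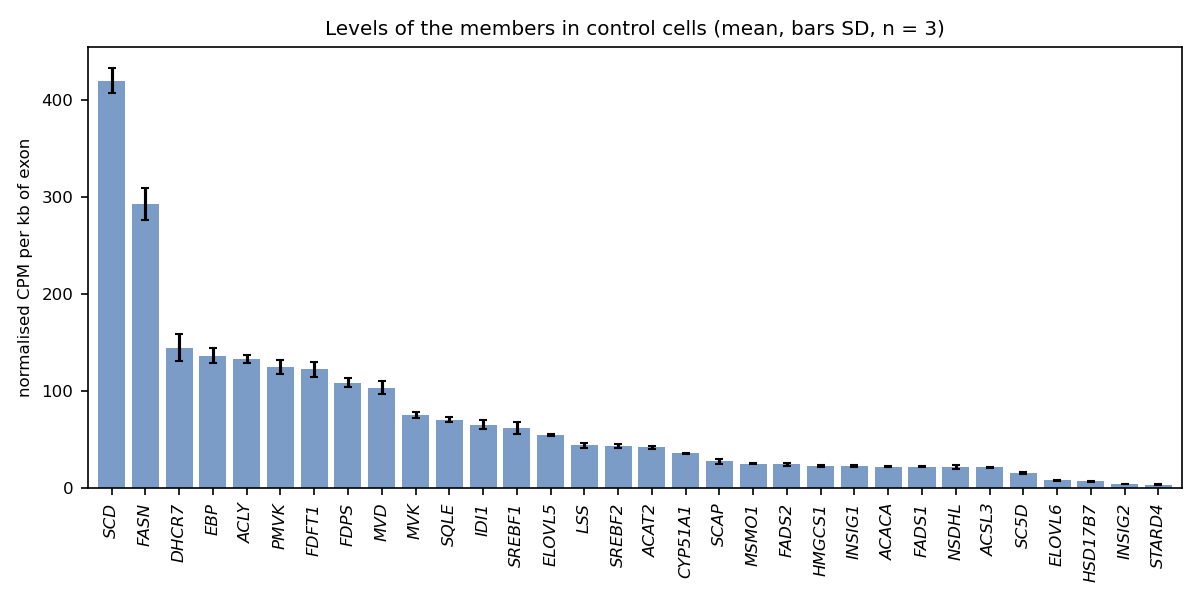
Mean level of each of the 32 genes in control cells, in normalised CPM per kilobase of exon (vertical axis, bars of SD over 3 libraries), ordered from highest to lowest. SCD at 419.7 and FASN at 293 CPM per kb stand above all the others, and STARD4 is the lowest at 3.61.

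The bases upstream of 4 genes are shown because SREBF2 and ACLY fell and STARD4 rose in all 3 mutant lines, and ELOVL6 rose in Splice del and C321fs cells. The sequences are from RefSeq (GRCh38.p14), run 5′ to 3′ towards the gene and end before the first base that the count file gives to it. They lie at chr22:41832855-41833078 on the plus strand, chr17:41919023-41919272 on the minus strand, chr5:111512598-111512785 on the minus strand and chr4:110198665-110198865 on the minus strand, respectively. Capitals mark a CCAAT box (CCAAT, or ATTGG on the other strand) and, in SREBF2, the core of a sterol regulatory element, the site that SREBPs bind.
SREBF2: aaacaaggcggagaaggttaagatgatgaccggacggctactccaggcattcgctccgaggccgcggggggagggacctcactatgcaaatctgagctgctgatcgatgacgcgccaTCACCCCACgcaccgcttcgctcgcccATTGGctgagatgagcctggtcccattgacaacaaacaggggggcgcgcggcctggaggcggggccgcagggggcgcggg
ACLY: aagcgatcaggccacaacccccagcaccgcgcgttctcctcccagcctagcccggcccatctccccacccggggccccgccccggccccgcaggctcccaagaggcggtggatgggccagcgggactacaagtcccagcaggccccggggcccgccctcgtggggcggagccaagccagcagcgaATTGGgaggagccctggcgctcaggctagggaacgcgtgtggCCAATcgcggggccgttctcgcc
STARD4: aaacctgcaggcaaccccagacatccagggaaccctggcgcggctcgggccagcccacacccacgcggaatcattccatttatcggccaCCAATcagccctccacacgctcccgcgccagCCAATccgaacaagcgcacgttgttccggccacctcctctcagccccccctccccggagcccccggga
ELOVL6: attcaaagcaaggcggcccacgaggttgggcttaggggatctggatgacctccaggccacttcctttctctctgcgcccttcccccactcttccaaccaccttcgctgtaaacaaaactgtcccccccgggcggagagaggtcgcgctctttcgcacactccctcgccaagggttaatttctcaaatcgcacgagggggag
SREBF2 holds 1 element core and 1 CCAAT box, ACLY and STARD4 each hold 2 CCAAT boxes, and ELOVL6 holds neither.

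The same letters were searched on both strands in the 250 bases before the RefSeq start of 28 members (ACAT2, FDFT1, SQLE and FASN had no entry). CCAAT was present in 19 of the 28 windows (67.9%), against 35.2% of the windows of 10620 tested genes and 33.1% of all 27305 windows. The GC box GGGCGG was present in 25 of 28 (89.3%), against 67.2% and 42.6%. The element core TCACNCCAC was found in SREBF2 alone (3.57%), against 0.791% and 0.875%. Only exact matches to this core were counted, so an element of other letters or outside the window would be missed. The E-box CACGTG was present in 4 (14.3%, against 8.56% and 6.36%). Of the letters that GATA factors recognise, AGATAA was present in 2 windows (7.14%, against 4.5% and 9.37%) and TGATAA in 1 (3.57%, against 3.19% and 6.92%). The partial motif that the study reported at the peaks of the mutants (WGAT or AGAT) was not counted by itself, nor was WGATAG. These are counts of letters with no test. Both GATA words end in GATAA, and the end of the element core can be the start of an E-box.

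The question put to these genes was whether their RNA levels move together or apart from control in the 3 mutants. Lipid synthesis itself was not measured. Libraries of 2 lines often did not overlap: 15 members lay higher and 13 lower in Splice del than in control without overlap (31.7% and 31.3% of all tested genes), 12 and 13 in C321fs (27.3% and 26.7%), and 13 and 15 in A333fs (31.2% and 34.3%). Across the 4 lines 29 of the 32 genes differed (adjusted p below 0.01), against 56.2% of all tested genes, and SQLE, HSD17B7 and INSIG2 did not pass (adjusted p = 0.0524, 0.0119 and 0.0125). In Splice del cells 11 genes rose and 10 fell, against 18.7% and 22.4% of all tested genes. In C321fs cells 8 rose and 13 fell, against 16.1% and 20.7%. In A333fs cells 8 rose and 14 fell, against 21.0% and 26.4%. The RNA levels of the pathway genes therefore did not move one way: each line held members that rose and members that fell.

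Most of the changes were small. Called in Splice del cells were 3 genes that rose (STARD4, ELOVL5 and ELOVL6; 6.21% of all tested genes) and 2 that fell (PMVK and FASN; 4.53%). C321fs cells had ELOVL6 among the higher (4.63%) and FASN among the lower genes (2.26%). A333fs cells had none among the higher (edgeR; 5.46% of all tested genes, 28 members at an unadjusted p below 0.05 in either direction, and 0 called by DESeq2) and PMVK, SREBF1, SCAP and FASN among the lower genes (6.81%). Without control replicate 2, or without A333fs replicate 2, FASN alone was called among these 4: PMVK was then at -0.55 or -0.54, SREBF1 at -0.53 or -0.56 and SCAP at -0.56 or -0.54 on the log2 scale, with adjusted p of at most 0.000136. STARD4, close to the limit, was called in C321fs cells without control replicate 3 (0.64) or C321fs replicate 1 (0.61), and in A333fs cells without control replicate 3 (0.63), A333fs replicate 2 (0.60) or A333fs replicate 3 (0.59). PMVK was called in C321fs cells without C321fs replicate 1 (-0.62), and MVD in A333fs cells without control replicate 1 (-0.59). IDI1, MSMO1, STARD4 and ELOVL5 rose in all 3 lines (8.93% of all tested genes did), and MVK, PMVK, FDFT1, EBP, SREBF2, SCAP, ACLY and FASN fell in all 3 (14.7%). The 3 comparisons share the control libraries.

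Of the 64 rises and falls against control, 54 kept an adjusted p below 0.01 whichever single library was left out. In Splice del cells the exceptions were HMGCS1, which missed it without control replicate 1 or 2 or Splice del replicate 2 or 3 (adjusted p up to 0.0299), MVD without control replicate 2 or Splice del replicate 1 or 2 (up to 0.0252), NSDHL without control or Splice del replicate 1 or 2 (up to 0.0264), and SREBF2 in 8 of the 12 fits (up to 0.0474). In C321fs cells they were DHCR7 without control or C321fs replicate 2 (up to 0.0141), FADS1 without control replicate 2 (0.0102), NSDHL without control replicate 1 or 2 or C321fs replicate 2 (up to 0.0226), and LSS in 5 of the 12 fits (up to 0.0385). In A333fs cells they were INSIG2 without control replicate 1 or 3 or A333fs replicate 2 (up to 0.0129) and LSS without control replicate 2 or A333fs replicate 1 or 2 (up to 0.0404).

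These counts depended on the scaling and on the GC trend. With library totals in place of TMM factors 16 members rose and 7 fell in Splice del, 14 rose and 6 fell in C321fs, and 14 rose and 12 fell in A333fs cells, and with upper-quartile factors the counts were 16 and 7, 10 and 9, and 14 and 12. The median log2 fold change over all tested genes also moved up, to 0.22, 0.19 and 0.16 with library totals. With upper-quartile factors that median was 0.12, 0.11 and 0.12. The shares of all tested genes that rose or fell under these scalings are not given here. In the corrected fit 8 rose and 7 fell in Splice del, 5 rose and 8 fell in C321fs, and 1 rose and 13 fell in A333fs cells, and FASN in C321fs cells was the only call left. Of the 14789 tested genes in that fit, 2244 rose and 3215 fell in Splice del cells. In C321fs cells 1593 rose and 2540 fell, and in A333fs cells 1521 and 2963. Falls thus outnumbered rises over all tested genes in each line. Calls over all tested genes were 777 higher and 249 lower, 521 and 159, and 575 and 226. The median log2 fold change over the 17 enzymes of the sterol branch was -0.14 (Splice del), -0.085 (C321fs) and -0.22 (A333fs), and over the 9 genes of the fatty acid branch it was 0.15, 0.089 and 0.013. The last of these was near 0 and turned to -0.013 without control replicate 2 and to -0.056 without A333fs replicate 3, while it was 0.056 and 0.070 without A333fs replicate 1 or 2. That of C321fs cells was 0.039 without C321fs replicate 3 and 0.13 without C321fs replicate 1. Over all tested genes the median was 0.032, 0.021 and 0.0086. After correction the medians of the sterol branch were 0.0024, -0.078 and -0.096, and those of the fatty acid branch 0.072, 0.076 and -0.093. The corrected medians over all tested genes were -0.0015, -0.0043 and -0.042.

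**Figure D2:**
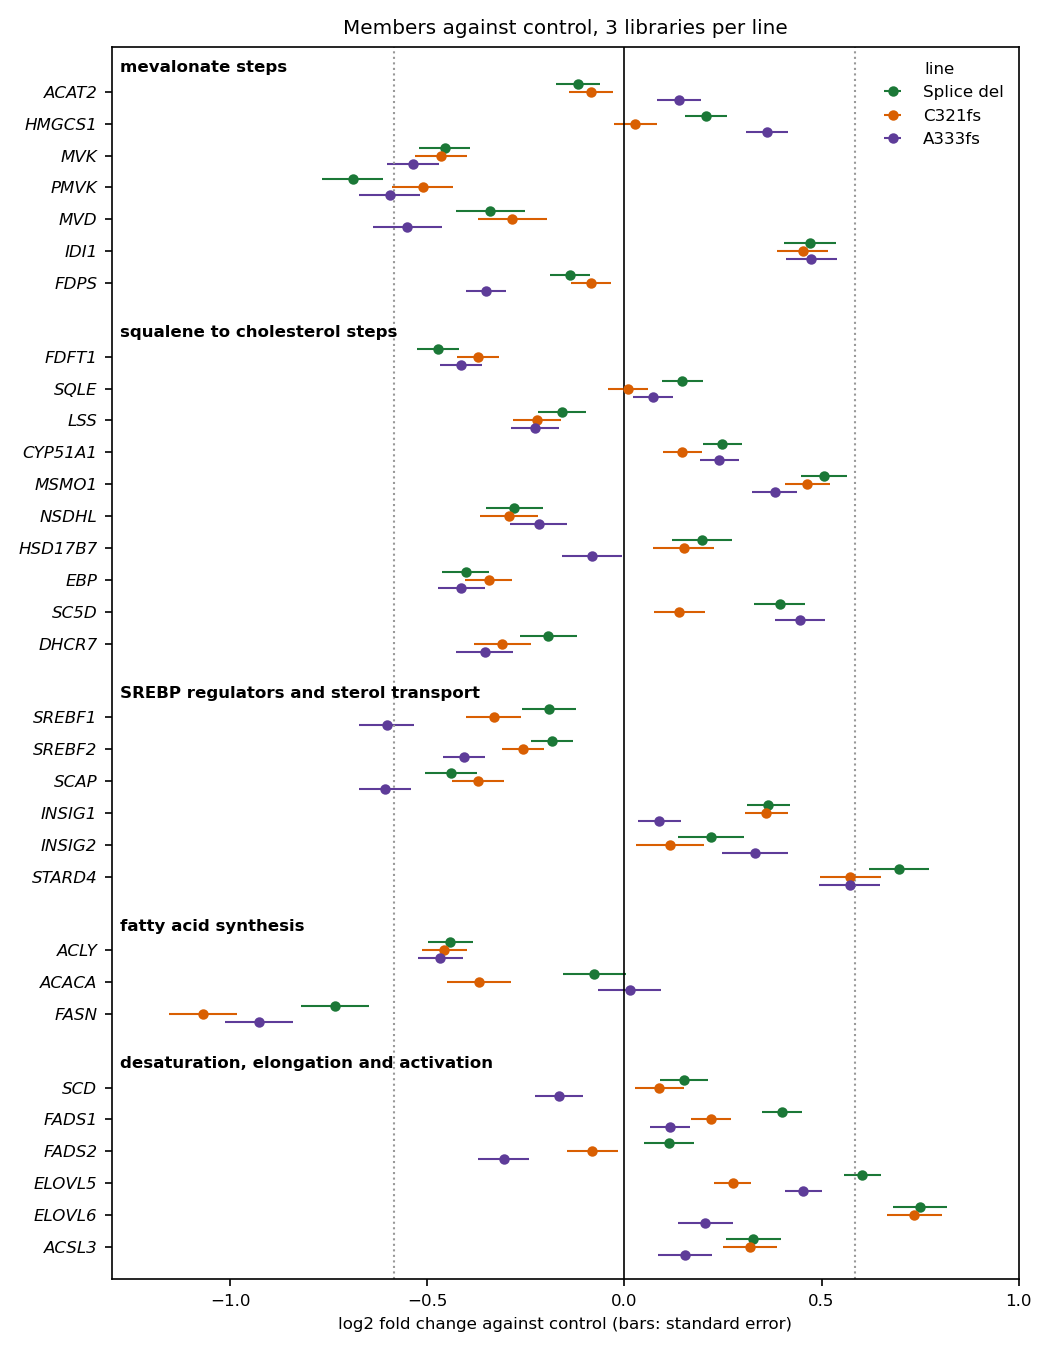
Log2 fold change against control (horizontal axis, bars of standard error) of the 32 genes in the order of their steps, for Splice del (green), C321fs (orange) and A333fs cells (purple), 3 libraries per line. Dotted lines mark a fold change of 1.5. FASN lies furthest to the left, between -1.07 and -0.73, and ELOVL6 furthest to the right in Splice del and C321fs cells, at 0.75 and 0.74.

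Within the mevalonate steps the early enzyme HMGCS1 and the kinases moved in different ways before correction. After it HMGCS1 rose in no line. HMGCS1 (chr5:43287470-43313512), the cytosolic HMG-CoA synthase, was at 120.1, 124 and 131 CPM in the control libraries, 141, 149.9 and 142 in the Splice del, 124, 127 and 131 in the C321fs and 154, 168 and 160.2 in the A333fs libraries. All A333fs libraries lay above all Splice del libraries, these lay above control, and C321fs overlapped control. HMGCS1 had log2 fold changes of 0.21 for Splice del (standard error 0.054, adjusted p = 0.00421), 0.028 for C321fs (0.054, 0.686) and 0.36 for A333fs (0.054, 3.53e-05). HMGCS1 thus rose in Splice del and A333fs cells, but after correction (its exons hold 39.5% GC) the values were -0.056, -0.23 and 0.048, negative in Splice del and C321fs cells, and that of C321fs cells passed (adjusted p = 0.000535). Between A333fs and C321fs cells the difference was 0.33 (standard error 0.054, adjusted p = 0.000258), and 0.28 after correction.

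PMVK (chr1:154924732-154937008), the phosphomevalonate kinase, was at 153, 172 and 160.2 CPM in the control libraries, 99, 96.8 and 106 in the Splice del, 129.6, 111 and 99.6 in the C321fs and 109.5, 104 and 108 in the A333fs libraries. All 9 mutant libraries lay below the 3 control libraries, and the mutant lines overlapped each other. The log2 fold change was -0.69 for Splice del (standard error 0.078, adjusted p = 4.07e-06), -0.51 for C321fs (0.078, 9.13e-05) and -0.60 for A333fs (0.078, 1.17e-05), and -0.44, -0.31 and -0.31 after correction. MVK, the mevalonate kinase one step before it, fell as well, from 156 ± 6.47 CPM (SD, n = 3) in control to 113 ± 2.68 (Splice del), 113 ± 11.2 (C321fs) and 107 ± 4.33 CPM (A333fs). Its log2 fold change was -0.46 (Splice del), -0.47 (C321fs) and -0.54 (A333fs), and -0.22, -0.27 and -0.20 after correction. The exons of MVK and PMVK hold 60.9% and 59.7% GC. In both kinases the fall became smaller after correction and still passed in all 3 lines.

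MVD, the mevalonate diphosphate decarboxylase that follows, had log2 fold changes of -0.34 (Splice del), -0.28 (C321fs) and -0.55 (A333fs) and fell in Splice del and A333fs cells (adjusted p = 0.00395 and 7.02e-05). Corrected, these were -0.061, -0.065 and -0.10 and none passed; its exons hold 65.6% GC, the highest share of the 32 genes. IDI1, the isopentenyl diphosphate isomerase, rose to a similar level in all 3 lines, from 139.9 ± 9.89 CPM (SD, n = 3) in control to 194 ± 10.8 (Splice del), 191 ± 7.49 (C321fs) and 194 ± 12.5 CPM (A333fs). Its log2 fold change was 0.47 for Splice del (standard error 0.065, adjusted p = 2.48e-05), 0.45 for C321fs (0.065, 6e-05) and 0.47 for A333fs (0.065, 1.81e-05), and 0.22, 0.19 and 0.12 after correction, of which that in A333fs cells did not pass. FDPS, the farnesyl diphosphate synthase, fell in A333fs cells, with -0.35 (standard error 0.051, adjusted p = 2.74e-05), and after correction (0.029, 0.053 and -0.19) still passed there alone. ACAT2, the cytosolic acetyl-CoA acetyltransferase at the head of the pathway, did not pass against control in any line (-0.12 (Splice del), -0.084 (C321fs) and 0.14 (A333fs); -0.098, -0.078 and 0.075 after correction). Since the counting ignored strand, the counts of IDI1, FDPS and ACAT2 may be affected by genes that overlap them on the other strand.

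In the steps from squalene to cholesterol, FDFT1, which commits the pathway to sterols as squalene synthase, fell in all 3 lines. FDFT1 ran from 498 to 558 CPM in control libraries and from 374 to 418 CPM in the 9 mutant libraries, with no overlap. Its log2 fold change was -0.47 for Splice del (standard error 0.053, adjusted p = 3.67e-06), -0.37 for C321fs (0.053, 5.37e-05) and -0.41 for A333fs (0.053, 9.4e-06). Corrected, it was -0.43, -0.28 and -0.37, still past the threshold of adjusted p in each line. EBP, the sterol isomerase, fell likewise, from 158 ± 8.86 CPM (SD, n = 3) in control to 119 ± 3.08 (Splice del), 124 ± 7.64 (C321fs) and 119 ± 5.11 CPM (A333fs). Its log2 fold changes were -0.40 (Splice del), -0.34 (C321fs) and -0.41 (A333fs), and -0.24, -0.21 and -0.29 after correction, all past the threshold of adjusted p.

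SQLE, the squalene epoxidase and a rate-limiting enzyme of the pathway, was at 215, 216 and 201 CPM in the control libraries, 227, 242 and 232 in the Splice del, 202, 216 and 218 in the C321fs and 219, 219.8 and 226 in the A333fs libraries. Splice del and A333fs libraries lay above control without overlap, by a margin that did not pass the test. Its log2 fold changes were 0.15 for Splice del (standard error 0.051, adjusted p = 0.0231), 0.0087 for C321fs (0.051, 0.9) and 0.072 for A333fs (0.051, 0.237). The values for C321fs and A333fs cells turned negative after correction (0.057, -0.067 and -0.096).

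MSMO1, the sterol C4-methyl oxidase, rose in all 3 lines, from 55.6 ± 1.10 CPM (SD, n = 3) in control to 79 ± 0.945 (Splice del), 76.7 ± 2.68 (C321fs) and 72.5 ± 5.02 CPM (A333fs). Its log2 fold changes were 0.51 (Splice del), 0.46 (C321fs) and 0.38 (A333fs), and 0.22, 0.14 and 0.0086 after correction, of which that of Splice del alone passed. SC5D, the sterol C5-desaturase, rose in Splice del (0.39 (standard error 0.064, adjusted p = 0.000104)) and A333fs cells (0.44 (0.064, 2.74e-05)), and stood at 0.14 in C321fs cells. CYP51A1, the lanosterol demethylase, rose in the same lines, by 0.25 and 0.24 on the log2 scale. After correction neither SC5D (0.12, -0.12 and 0.15) nor CYP51A1 (0.033, -0.072 and -0.062, negative in C321fs and A333fs cells) passed in any line. These 3 genes have exons of 37.5%, 38.1% and 42.1% GC.

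Of the other enzymes of these steps, NSDHL, a sterol dehydrogenase, fell in Splice del (-0.28) and C321fs cells (-0.29) and was at -0.22 in A333fs cells. After correction it was -0.16, -0.20 and -0.14 and passed in none of them (adjusted p = 0.0298, 0.0121 and 0.0661). LSS, the lanosterol synthase, fell in C321fs (-0.22) and A333fs cells (-0.23), but turned positive after correction (0.030, 0.0051 and 0.085), where none passed. DHCR7, the reductase of the last step, fell in the same lines (-0.31 and -0.35), and its values after correction were 0.0024, -0.12 and -0.071, of which none passed. HSD17B7, a ketosteroid reductase of the pathway, did not pass in any line (0.20 (Splice del), 0.15 (C321fs) and -0.082 (A333fs)), but after correction it was 0.090, 0.033 and -0.31 and that of A333fs cells passed (adjusted p = 0.00157). LSS is also annotated on an alternate contig, and FDPS, CYP51A1 and HSD17B7 have pseudogene copies. Fragments that map to several places may therefore be missing from their counts, which was not measured. CYP51A1-AS1 overlaps CYP51A1 on the other strand.

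Without correction the regulators split by direction, along the GC content of their exons. SREBF1, SCAP and SREBF2 (63.4%, 61.8% and 57.4% GC) had negative log2 fold changes in all 3 lines. INSIG1, INSIG2 and STARD4 (45.9%, 36.8% and 34.8% GC) had positive ones. After correction this split did not hold throughout: SREBF1 was positive in Splice del cells, and INSIG2 was negative in all 3 lines. SREBF1 (chr17:17811349-17837011), which encodes SREBP-1, the main activator of fatty acid genes, was at 285, 341 and 303 CPM in the control libraries, 266, 260.0 and 288 in the Splice del, 265, 228 and 246 in the C321fs and 203, 201 and 208 in the A333fs libraries. All A333fs libraries lay below every other library, C321fs lay below control, and Splice del overlapped control. SREBF1 had log2 fold changes of -0.19 for Splice del (standard error 0.069, adjusted p = 0.0287), -0.33 for C321fs (0.070, 0.00111) and -0.60 for A333fs (0.070, 3.75e-06), so that SREBF1 fell in C321fs and A333fs cells. The corrected values (its exons hold 63.4% GC) were 0.046, -0.062 and -0.17, and that of A333fs cells still passed (adjusted p = 0.00368). RAI1 overlaps SREBF1 on the other strand.

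SREBF2 (chr22:41833079-41907308), which encodes SREBP-2, the main activator of sterol genes, was at 244, 266 and 249 CPM in the control libraries, 216, 217 and 236 in the Splice del, 215, 206 and 215 in the C321fs and 187, 189 and 197 in the A333fs libraries. The 4 lines did not overlap, in the order control, Splice del, C321fs and A333fs from high to low, although the gap between Splice del and C321fs was below 1 CPM. SREBF2 had log2 fold changes of -0.18 for Splice del (standard error 0.053, adjusted p = 0.00856), -0.26 for C321fs (0.053, 0.00104) and -0.41 for A333fs (0.054, 1.2e-05). Corrected, it was -0.020, -0.034 and -0.15 and A333fs cells alone passed, and with library totals the value in Splice del cells turned to 0.0033. SCAP (chr3:47413694-47475955), the escort of both factors, was at 107, 126 and 119.7 CPM in the control libraries, 85, 83.8 and 90.9 in the Splice del, 96.8, 86.4 and 89.3 in the C321fs and 78, 74.1 and 79.1 in the A333fs libraries. Every mutant library lay below control, and A333fs lay below the other mutant lines. Its log2 fold change was -0.44 for Splice del (standard error 0.066, adjusted p = 4.82e-05), -0.37 for C321fs (0.066, 0.000309) and -0.61 for A333fs (0.066, 2.17e-06), and -0.22, -0.13 and -0.22 after correction, where C321fs cells no longer passed (adjusted p = 0.0229).

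INSIG1 (chr7:155297776-155310235), the sterol-dependent retention protein and itself a SREBP target, was at 73.6, 68.8 and 69.4 CPM in the control libraries, 88.8, 93 and 91 in the Splice del, 95.6, 88.5 and 87.8 in the C321fs and 77.6, 75.1 and 72.6 in the A333fs libraries. Splice del and C321fs libraries lay above control and above A333fs libraries, which overlapped control. The log2 fold change was 0.36 for Splice del (standard error 0.054, adjusted p = 4.72e-05), 0.36 for C321fs (0.054, 8.57e-05) and 0.089 for A333fs (0.055, 0.175), and 0.25, 0.26 and -0.11 after correction. INSIG1 thus rose in Splice del and C321fs cells under both fits. Its relative INSIG2 rose in A333fs cells (0.33) but no longer passed after correction (-0.084, -0.23 and -0.035), and its exons hold 36.8% GC.

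STARD4 (chr5:111496035-111512597), a carrier that moves cholesterol between membranes, was at 19.8, 18.7 and 21.9 CPM in the control libraries, 33.4, 34.7 and 29.8 in the Splice del, 28.3, 31.9 and 29.8 in the C321fs and 30.6, 30.1 and 29.1 in the A333fs libraries. Every mutant library lay above every control library, and the mutant lines overlapped. STARD4 had log2 fold changes of 0.70 for Splice del (standard error 0.076, adjusted p = 2.79e-06), 0.57 for C321fs (0.076, 3.14e-05) and 0.57 for A333fs (0.076, 1.4e-05). Corrected, it was 0.36, 0.18 and 0.25, and Splice del cells alone passed. STARD4 had the lowest GC content of the 32 genes (34.8%), and STARD4-AS1 overlaps it on the other strand.

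**Figure D3:**
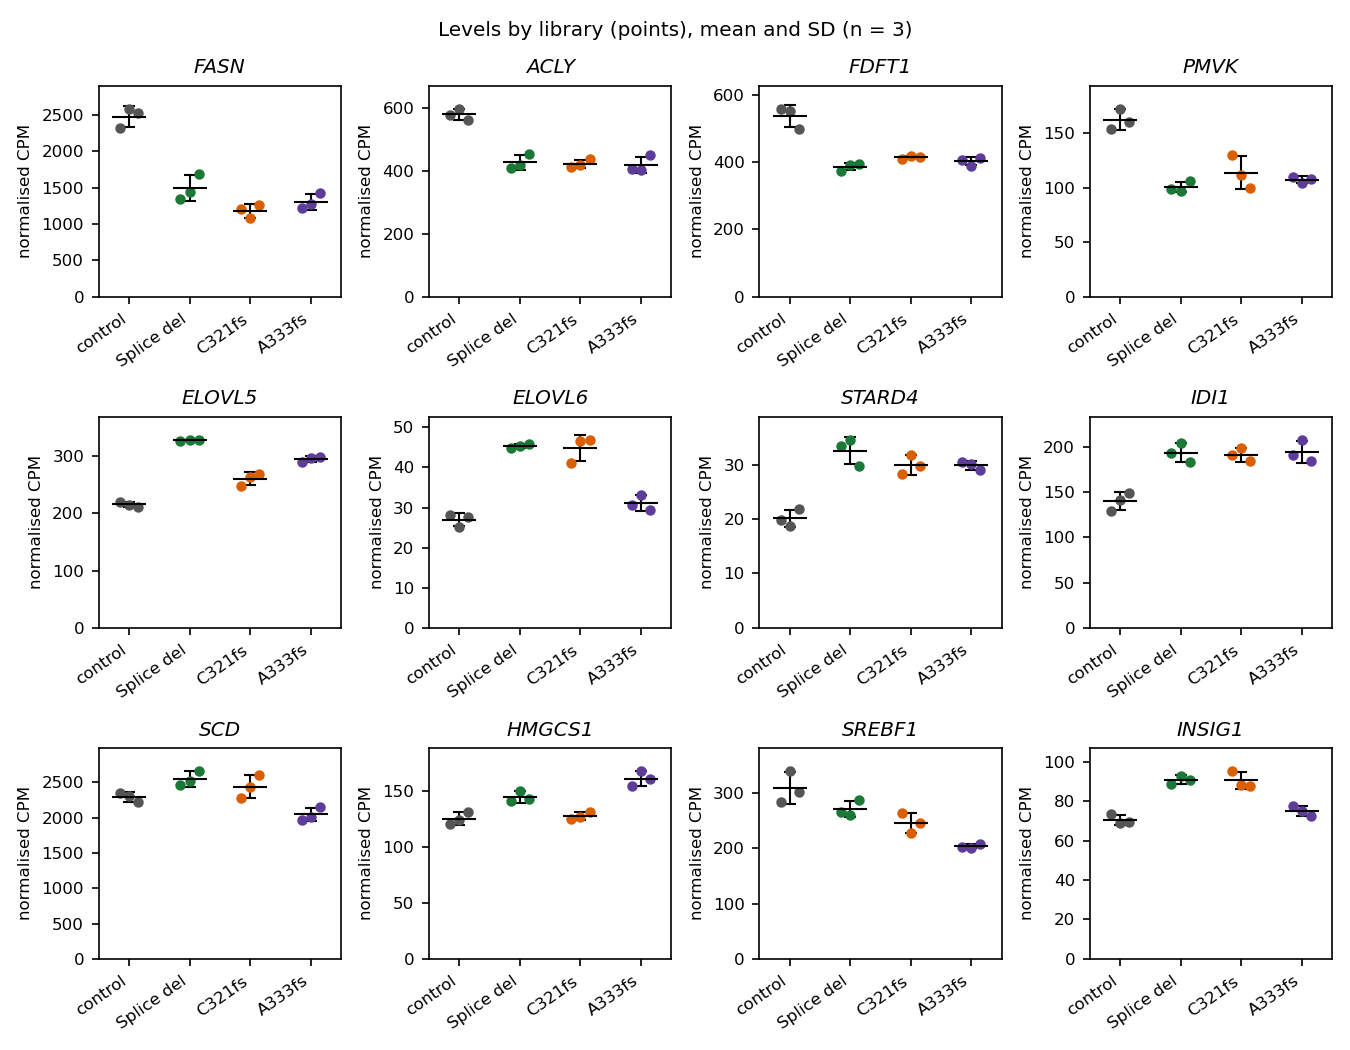
Normalised CPM (vertical axes from 0) of 12 genes in each of 12 libraries (points), with the mean and SD of the 3 libraries of each line (black). FASN, ACLY, FDFT1 and PMVK are lower and STARD4, IDI1 and ELOVL5 higher in all 9 mutant libraries than in the 3 control libraries, and ELOVL6 and INSIG1 are higher in Splice del and C321fs than in A333fs libraries.

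The largest change of the 32 genes was that of FASN (chr17:82078338-82098230), the enzyme that assembles palmitate. FASN was at 2316, 2585 and 2522 CPM in the control libraries, 1339, 1440.2 and 1686 in the Splice del, 1203, 1077 and 1259.9 in the C321fs and 1213, 1274 and 1419.7 in the A333fs libraries. All 9 mutant libraries lay below the 3 control libraries, and C321fs lay below Splice del without overlap. FASN was 1.66-fold lower in Splice del, 2.10-fold lower in C321fs and 1.90-fold lower in A333fs cells. Its log2 fold changes were -0.73 for Splice del (standard error 0.086, adjusted p = 5.5e-06), -1.07 for C321fs (0.087, 4.81e-07) and -0.93 for A333fs (0.086, 5.34e-07). Corrected, it was -0.55, -0.81 and -0.54, and it passed in every line under each of the 20 settings tried, within a range of -0.83 to -0.55 for Splice del, -1.12 to -0.81 for C321fs and -0.99 to -0.54 for A333fs. The exons of FASN hold 65.3% GC, the second highest share after MVD.

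ACLY (chr17:41866917-41919022), which makes the cytosolic acetyl-CoA for both pathways from citrate, was at 579, 598 and 563 CPM in the control libraries, 408, 419 and 453 in the Splice del, 412, 418 and 437 in the C321fs and 406, 404 and 449 in the A333fs libraries. All mutant libraries lay below control, and the 3 mutant lines overlapped. ACLY had log2 fold changes of -0.44 for Splice del (standard error 0.057, adjusted p = 1.36e-05), -0.46 for C321fs (0.057, 1.84e-05) and -0.47 for A333fs (0.057, 6.38e-06). Corrected, it was -0.39, -0.36 and -0.41, close to the uncorrected values, at an exon GC content of 52.3%. ACACA, the acetyl-CoA carboxylase between ACLY and FASN, differed from both. Its mean went from 253 ± 8.53 CPM (SD, n = 3) in control to 239.9 ± 11.8 (Splice del), 196 ± 25.3 (C321fs) and 255 ± 20.7 CPM (A333fs). ACACA fell in C321fs cells, with -0.37 (standard error 0.081, adjusted p = 0.0015), and was at -0.076 in Splice del and 0.013 in A333fs cells. After correction the values were -0.15, -0.40 and 0.019 and C321fs cells alone passed, whereas with library totals they did not. ACACA is also annotated on an alternate contig.

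Of the 6 genes of desaturation, elongation and activation, 4 rose and none fell in Splice del (18.7% and 22.4% of all tested genes) and in C321fs cells (16.1% and 20.7%), and 1 rose and 1 fell in A333fs cells (21.0% and 26.4%). After correction 4 rose in Splice del (2244 of all 14789 tested genes) and 3 rose in C321fs cells (1593). In A333fs cells 1 rose and 2 fell (1521 and 2963). SCD (chr10:100347015-100364831) was at 2357, 2311 and 2217 CPM in the control libraries, 2457, 2517 and 2668 in the Splice del, 2282, 2436 and 2604 in the C321fs and 1968, 2012 and 2157 in the A333fs libraries. Splice del libraries lay above control and A333fs libraries below it, while C321fs overlapped control. None passed against control (0.15 for Splice del (standard error 0.061, adjusted p = 0.0484), 0.089 for C321fs (0.061, 0.237) and -0.17 for A333fs (0.061, 0.0283)). The corrected values were 0.071, 0.076 and -0.29, and that of A333fs cells passed (adjusted p = 3.38e-05).

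ELOVL6 (chr4:110049073-110198664), which elongates palmitate to stearate, was at 28.2, 25.2 and 27.6 CPM in the control libraries, 44.9, 45.4 and 45.8 in the Splice del, 41.2, 46.7 and 46.9 in the C321fs and 30.7, 33.2 and 29.4 in the A333fs libraries. Splice del and C321fs libraries overlapped each other and lay above A333fs libraries, which lay above control. ELOVL6 was 1.68-fold higher in Splice del and 1.67-fold higher in C321fs cells. The log2 fold change was 0.75 for Splice del (standard error 0.069, adjusted p = 5.87e-07), 0.74 for C321fs (0.069, 1.72e-06) and 0.21 for A333fs (0.070, 0.0183). Corrected, it was 0.54, 0.52 and -0.093, so the rise in Splice del and C321fs cells stayed past the threshold of adjusted p and the value in A333fs cells turned negative.

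ELOVL5 (chr6:53267398-53349179), an elongase of polyunsaturated fatty acids, was at 221, 214 and 212 CPM in the control libraries, 326, 329 and 328 in the Splice del, 249, 264 and 269.8 in the C321fs and 289.6, 297 and 299 in the A333fs libraries. The 4 lines did not overlap, in the order control, C321fs, A333fs and Splice del from low to high. ELOVL5 had log2 fold changes of 0.60 for Splice del (standard error 0.047, adjusted p = 1.16e-07), 0.27 for C321fs (0.047, 0.000245) and 0.45 for A333fs (0.047, 1.56e-06). Corrected, it was 0.48, 0.19 and 0.27, all past the threshold of adjusted p.

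FADS1, the delta-5 desaturase, also rose in Splice del (0.40 (standard error 0.050, adjusted p = 1.03e-05)) and C321fs cells (0.22 (0.050, 0.00205)), and was at 0.12 in A333fs cells. Its libraries did not overlap between any of the lines, and after correction the values were 0.38, 0.25 and 0.066. FADS2, the delta-6 desaturase, fell in A333fs cells (-0.31, adjusted p = 0.000732), but after correction the values were 0.32, 0.15 and 0.047 and Splice del cells alone passed (adjusted p = 1.17e-05). FADS1 and FADS2 overlap on opposite strands. ACSL3, which activates long-chain fatty acids, rose in Splice del (0.33) and C321fs cells (0.32), and after correction its values were 0.051, 0.023 and -0.18, so that these rises no longer passed and A333fs cells passed with a negative value (adjusted p = 0.006).

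The mutant lines were then compared with each other, where the GC trend was weaker. Over the 14789 genes Spearman's rho between GC content and log2 fold change was -0.030 for Splice del against C321fs, -0.30 for A333fs against C321fs and -0.31 for A333fs against Splice del. No member was called in these 3 comparisons by edgeR or by DESeq2, against 1.76% higher and 0.879% lower, 2.47% and 3.08%, and 1.03% and 1.97% of all tested genes, while 9, 17 and 18 members had an unadjusted p below 0.05. Without overlap, 10 members lay higher and 1 lower in Splice del than in C321fs libraries (15.4% and 14.3% of all tested genes), 8 higher and 11 lower in A333fs than in C321fs (18.7% and 21.8%), and 2 higher and 17 lower in A333fs than in Splice del libraries (21.9% and 24.5%). At an adjusted p below 0.01, 1 gene was higher and 0 lower in Splice del than in C321fs cells (4.18% and 2.14% of all tested genes), 4 were higher and 5 lower in A333fs than in C321fs cells (6.8% and 8.89%), and 1 was higher and 8 lower in A333fs than in Splice del cells (4.63% and 7.29%).

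The largest of these differences was that of ELOVL6, which was lower in A333fs cells, with -0.53 (standard error 0.068, adjusted p = 2.91e-05) on the log2 scale against C321fs and -0.54 (0.068, 4.79e-05) against Splice del cells. Without C321fs replicate 1 the former was -0.59 and called. The values were -0.62 and -0.63 after correction, and both were then called. INSIG1 was lower in A333fs cells against both (-0.27 (standard error 0.054, adjusted p = 0.00155) and -0.28 (0.054, 0.00197)), and so were SCD (-0.25 (0.061, 0.00583) and -0.32 (0.061, 0.00181)), SREBF1 (-0.27 (0.070, 0.00877) and -0.41 (0.070, 0.000656)) and FDPS (-0.27 (0.051, 0.00105) and -0.21 (0.051, 0.00659)). The desaturases FADS1 (-0.28) and FADS2 (-0.42) and SREBF2 (-0.22) were lower in A333fs than in Splice del cells.

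Higher in A333fs than in C321fs cells were ACAT2 (0.22), HMGCS1 (0.33), SC5D (0.31) and ACACA (0.38), and ACAT2 was also higher than in Splice del cells (0.26). ELOVL5 was higher in Splice del than in C321fs cells, with 0.33 (standard error 0.047, adjusted p = 0.00017). FASN did not pass between mutant lines (adjusted p = 0.0169 for Splice del against C321fs, with a log2 difference of 0.33 and a standard error of 0.086), but after correction it was higher in Splice del (0.26, adjusted p = 0.00546) and in A333fs (0.27, adjusted p = 0.00287) than in C321fs cells. Of the 19 differences, 3 no longer passed after correction, namely ACAT2 and SREBF1 against C321fs and SREBF2 against Splice del cells, and the counts became 4 higher and 0 lower in Splice del than in C321fs, 4 and 7 in A333fs than in C321fs, and 1 and 12 in A333fs than in Splice del cells. Over all 14789 tested genes the corrected counts were 917 higher and 754 lower, 1268 and 1729, and 880 and 1244, in the same order. The 2 comparisons of A333fs cells share the A333fs libraries. Of the 19 differences between mutant lines, 8 kept an adjusted p below 0.01 whichever library was left out: ELOVL6 in both comparisons, HMGCS1 and SC5D against C321fs, SREBF1, FADS1 and FADS2 against Splice del, and ELOVL5.

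**Figure D4:**
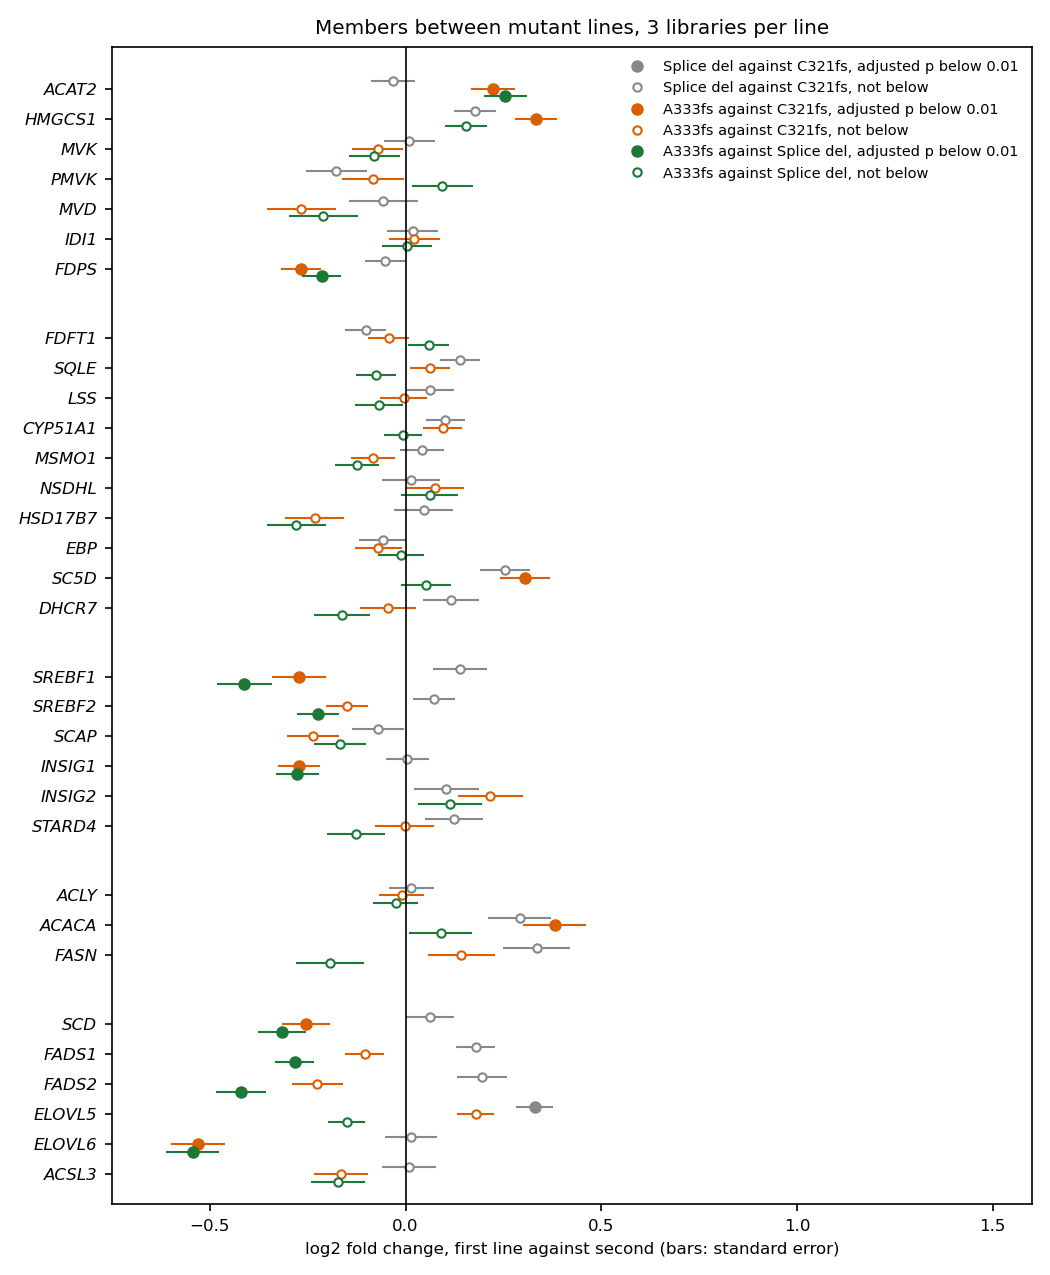
Log2 fold change between mutant lines (horizontal axis, bars of standard error) for the 32 genes, with filled points for an adjusted p below 0.01 and open points for others. ELOVL6 in A333fs cells lies furthest to the left, at -0.53 and -0.54, and ELOVL5 holds the only filled point of Splice del against C321fs, at 0.33.

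The direction of the 32 genes followed the GC content of their exons, which ran from 34.8% (STARD4) to 65.6% (MVD) with a median of 49.5%, against a median of 49.6% over all tested genes. Spearman's rho between GC content and log2 fold change over the 32 genes was -0.81 (Splice del), -0.79 (C321fs) and -0.91 (A333fs). Over all tested genes it was -0.51, -0.55 and -0.67. After correction it was -0.51, -0.32 and -0.47 over the 32 genes and -0.054, -0.064 and -0.089 over all tested genes. Genes are not independent replicates, and they share the 12 libraries and the GC slope of the control libraries.

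**Figure D5:**
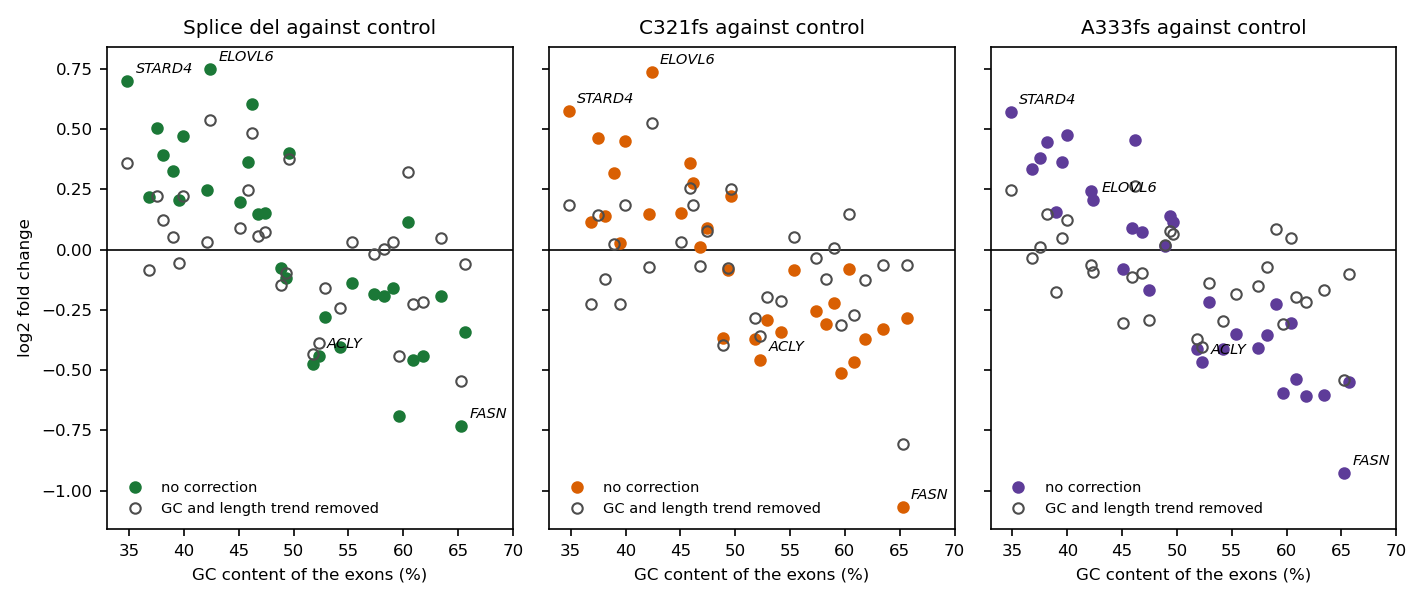
Log2 fold change against control (vertical axis) over exon GC content in percent (horizontal axis) for the 32 genes in each mutant line, without correction (filled) and corrected for the GC and length trend of each library (open). Filled points fall from the upper left (STARD4, at 34.8% GC) to the lower right (FASN, at 65.3%), and FASN keeps a log2 fold change of -0.55, -0.81 and -0.54 after correction.

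Genes around the 2 pathways were read from further lists. For comparison, shares of all tested genes are given in the order Splice del, C321fs, A333fs. Of all tested genes 18.7%, 16.1% and 21.0% rose, while 22.4%, 20.7% and 26.4% fell. Higher calls made up 6.21%, 4.63% and 5.46% of them, and lower calls 4.53%, 2.26% and 6.81%. Whether any further list departed from these shares was not tested. Of 14 other isoprenoid and late sterol genes, 3 rose and 2 fell in Splice del, 4 rose and 2 fell in C321fs, and 5 rose and 3 fell in A333fs cells, and none was called (8, 8 and 9 at an unadjusted p below 0.05). Of 10 genes of SREBP processing and degradation, 2, 4 and 3 rose and none fell, in the same order of lines. RNF139, a ubiquitin ligase of the endoplasmic reticulum that binds the SCAP complex, was the one called, at 69.7 ± 5.49 CPM (SD, n = 3) in control, against 128 ± 3.25 (Splice del), 109 ± 4.51 (C321fs) and 144 ± 1.39 CPM (A333fs). Its log2 fold change was 0.88 (standard error 0.059, adjusted p = 2.46e-08), 0.64 and 1.05, and 0.65, 0.41 and 0.74 after correction.

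Of 10 other SREBP target genes that were tested, 3 rose and 2 fell in Splice del, 4 rose and 1 fell in C321fs, and 3 rose and 3 fell in A333fs cells. THRSP, a small lipogenic regulator, was low in every line, at 0.188 ± 0.0942 CPM (SD, n = 3) in control, against 0.811 ± 0.124 (Splice del), 2.10 ± 0.347 (C321fs) and 0.890 ± 0.253 CPM (A333fs), and was called higher in all 3 lines, at 2.06, 3.44 and 2.19 on the log2 scale (2.13, 3.48 and 2.19 after correction). SLC25A1, the mitochondrial citrate carrier that feeds ACLY, was at 346 ± 31.7 CPM (SD, n = 3) in control, against 261 ± 7.36 (Splice del), 285 ± 39.9 (C321fs) and 222 ± 6.98 CPM (A333fs), and was called lower in A333fs cells (-0.64 (standard error 0.084, adjusted p = 1.16e-05); after correction the 3 lines were at -0.12, -0.055 and -0.15). Of 16 tested genes of cholesterol efflux, uptake and esterification, 5 rose and 3 fell, 3 rose and 3 fell, and 6 rose and 4 fell. Of these the exporter ABCG1 rose in Splice del (0.95) and A333fs cells (0.60), as did CYP27A1, the sterol 27-hydroxylase (0.91 and 0.75), and VLDLR, a lipoprotein receptor, rose in C321fs cells (2.46 (standard error 0.25, adjusted p = 3.2e-06)). VLDLR was low, at 0.422 ± 0.153 CPM (SD, n = 3) in control and 2.35 ± 0.194 CPM in C321fs cells. In control cells CYP27A1 was at 2.97 ± 0.199 and ABCG1 at 7.16 ± 0.421 CPM. After correction the values of the 3 lines were 1.06, 0.23 and 0.74 for ABCG1, 1.13, 0.43 and 1.07 for CYP27A1, which then passed in C321fs cells too, and 0.69, 2.43 and 0.32 for VLDLR.

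Of 20 other tested genes of fatty acid synthesis and elongation, 6 rose and 7 fell in Splice del, 5 rose and 4 fell in C321fs, and 6 rose and 9 fell in A333fs cells. ELOVL2, an elongase of longer polyunsaturated chains, was called lower in A333fs cells (-0.89 (standard error 0.12, adjusted p = 1.09e-05); after correction the 3 lines were at -0.80, -0.071 and -1.20). Of 19 fatty acid oxidation genes, 2 rose and 4 fell, 0 rose and 7 fell, and 4 rose and 7 fell. Of 15 tested genes of fatty acid uptake, triglycerides and lipid droplets, 4 rose and 4 fell, 3 rose and 2 fell, and 4 rose and 6 fell. CD36, which takes up fatty acids, was at 2.67 ± 0.430 CPM (SD, n = 3) in control, against 4.11 ± 0.156 (Splice del), 21.5 ± 1.74 (C321fs) and 8.54 ± 0.505 CPM (A333fs). It rose in all 3 lines, by 0.63, 3.01 and 1.68 on the log2 scale, and was at 0.32, 2.69 and 1.35 after correction, of which that in Splice del cells did not pass. SLC27A4, a fatty acid transporter, fell in all 3 lines (-0.68, -0.46 and -0.82), and MGLL, the monoglyceride lipase, fell in Splice del (-0.96) and A333fs cells (-0.88). After correction these falls still passed, with values of -0.45, -0.23 and -0.43 for SLC27A4 and -0.79, 0.23 and -0.62 for MGLL in the 3 lines.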

How the data were processed

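RNA was purified, made into libraries with a NEBNext Ultra II kit and sequenced as paired reads in a single lane (12 libraries, 4 lines of 3). The authors used Trimmomatic on the reads, hg38 as the genome and featureCounts 1.6.4 without strand, and deposited raw counts of fragments per gene, not normalised. The submitters' processing notes name HISAT2, while a folder name in the file header names STAR. The deposited table also gives each gene's exon length. The 15 ChIP-seq samples were not used here. Overlapping genes and fragments that map to several places may limit the counts named in the text.

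Counts were fitted in R 4.3.3 with edgeR 4.0.16: filterByExpr by line, TMM factors, and 1 quasi-likelihood model of all 12 libraries with 1 coefficient per line, F-tests for 6 comparisons, and Benjamini-Hochberg adjustment over 14789 genes. Calls needed an adjusted p below 0.01 and a fold change above 1.5. The common dispersion corresponded to a CV of 6.73% between libraries, and no 2 replicates agreed within sampling noise (chi-square per gene at least 2.16). GC and length trends of each library were removed with loess curves (span 0.3) as an alternative, and DESeq2 1.42.0, other scalings, other filters and leaving out each library were tried. The test was also run on simulated counts without a GC difference between lines, and on a set with a GC trend added to control. The outcome is not given here. It does not show that uncorrected calls hold under the GC slopes of these libraries. Upstream windows and motifs came from RefSeq sequences of the same build.

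The members and the further gene lists were chosen with earlier results of these data known. The rule for values by library was: members called in at least 1 comparison, and HMGCS1, SQLE, INSIG1, SREBF1, SREBF2, FASN, SCD and ACLY; of each further list at most 3 called genes, in the order of their smallest adjusted p. A further gene that this rule names is not reported here.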

Additional observations from a re-analysis of the deposited data

Results flagged for a closer look

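Some genes differed between mutant lines under the same contrast with control, by a test of the difference itself (edgeR's quasi-likelihood test, Benjamini-Hochberg adjustment over 14789 genes). Log2 fold changes are given with their standard error and adjusted p in brackets. A333fs against C321fs cells gave -0.53 (0.068, 2.91e-05) for ELOVL6, -0.27 (0.054, 0.00155) for INSIG1, -0.25 (0.061, 0.00583) for SCD, -0.27 (0.070, 0.00877) for SREBF1 and -0.27 (0.051, 0.00105) for FDPS, all lower in A333fs cells. The same comparison gave 0.38 (0.081, 0.00235) for ACACA, 0.33 (0.054, 0.000258) for HMGCS1, 0.31 (0.064, 0.00221) for SC5D and 0.22 (0.056, 0.00751) for ACAT2, all higher in A333fs cells. A333fs against Splice del cells gave -0.54 (0.068, 4.79e-05) for ELOVL6, -0.42 (0.064, 0.0003) for FADS2, -0.41 (0.070, 0.000656) for SREBF1, -0.32 (0.061, 0.00181) for SCD, -0.28 (0.050, 0.000926) for FADS1, -0.28 (0.054, 0.00197) for INSIG1, -0.22 (0.053, 0.0072) for SREBF2 and -0.21 (0.051, 0.00659) for FDPS, and 0.26 (0.056, 0.00399) for ACAT2, the only one higher in A333fs cells. Splice del against C321fs cells gave 0.33 (0.047, 0.00017) for ELOVL5.

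Of these 19 differences, 11 missed an adjusted p of 0.01 when some single library was left out. Against C321fs they were FDPS without A333fs replicate 2 (0.0149), INSIG1 without A333fs replicate 2 or 3 (up to 0.0154), ACACA without C321fs replicate 2 or A333fs replicate 3 (up to 0.0174), SCD in 5 of 12 fits (up to 0.0479), ACAT2 in 7 (up to 0.0313) and SREBF1 in 8 (up to 0.0398). Against Splice del they were SCD in 3 fits (up to 0.0147), INSIG1 in 3 (up to 0.0156), ACAT2 in 5 (up to 0.0255), FDPS in 6 (up to 0.0579) and SREBF2 in 8 (up to 0.0527). After correction for GC content and length, 3 of the 19 no longer passed: SREBF1 (-0.10, adjusted p = 0.0687) and ACAT2 (0.15, adjusted p = 0.0169) against C321fs and SREBF2 (-0.13, adjusted p = 0.0221) against Splice del. ELOVL6 was -0.62 and -0.63.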

How the results depend on the processing

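The 6 counts of called genes against control (3 higher and 2 lower in Splice del, 1 and 1 in C321fs, 0 and 4 in A333fs cells) were 5 and 0, 4 and 1, and 4 and 1 with library totals, 3 and 2, 2 and 1, and 2 and 1 with upper-quartile factors, and 0 and 0, 0 and 1, and 0 and 0 after correction for GC content and length. With no minimum fold change they were 11 and 10, 8 and 13, and 8 and 14. Without a filter on low counts A333fs cells had 1 higher and 1 lower, and with at least 10 counts in every library C321fs cells had 2 higher and A333fs cells 1 higher. Leaving out 1 library gave 1 to 2 higher and 1 to 2 lower in C321fs, 0 to 1 higher and 1 to 5 lower in A333fs, and 0 to 1 lower in A333fs than in C321fs cells. Between mutant lines the 0 calls became 1 lower for A333fs against either line after correction, and, with no minimum fold change, 1 higher in Splice del than in C321fs, 4 higher and 5 lower in A333fs than in C321fs, and 1 higher and 8 lower in A333fs than in Splice del cells. The median over all tested genes shifted to 0.12, 0.11 and 0.12 with upper-quartile factors and to 0.22, 0.19 and 0.16 with library totals. Shares of all tested genes called under these 2 scalings are not given here. The counts of called members under them are therefore not a result about the members.

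The sterol branch medians became -0.048, 0 and -0.11 with upper-quartile factors, 0.049, 0.081 and -0.070 with library totals, and 0.0024 (Splice del) and -0.096 (A333fs) after correction, and that of A333fs cells ran from -0.24 to -0.15 when 1 library was left out. The fatty acid branch medians became 0.24 (Splice del) and 0.12 (A333fs) with upper-quartile factors, 0.34, 0.26 and 0.16 with library totals, and 0.072 (Splice del) and -0.093 (A333fs) after correction, and when 1 library was left out the range was 0.039 to 0.13 (C321fs) and -0.056 to 0.070 (A333fs).

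Signs of log2 differences from control turned for these genes. After correction they were HMGCS1 -0.056, FDPS 0.029, LSS 0.030, DHCR7 0.0024, SREBF1 0.046, INSIG2 -0.084 in Splice del, HMGCS1 -0.23, FDPS 0.053, SQLE -0.067, LSS 0.0051, CYP51A1 -0.072, SC5D -0.12, INSIG2 -0.23, FADS2 0.15 in C321fs and SQLE -0.096, LSS 0.085, CYP51A1 -0.062, INSIG1 -0.11, INSIG2 -0.035, FADS2 0.047, ELOVL6 -0.093, ACSL3 -0.18 in A333fs cells. With library totals they were ACAT2 0.069, FDPS 0.049, LSS 0.029, SREBF2 0.0033, ACACA 0.11 in Splice del, ACAT2 0.082, FDPS 0.081, FADS2 0.087 in C321fs and HSD17B7 0.065 in A333fs cells, and with upper-quartile factors ACACA 0.012 in Splice del, ACAT2 0.00050, FDPS 0, FADS2 0.0052 in C321fs and HSD17B7 0.029 in A333fs cells. SQLE in C321fs cells was -0.0035 with RLE size factors and -0.0069 with DESeq2. When 1 library was left out, values ran for HMGCS1 in C321fs from -0.0018 to 0.062, for SQLE in C321fs from -0.024 to 0.042, for HSD17B7 in A333fs from -0.14 to 0.0095, for ACACA in A333fs from -0.056 to 0.070. The causes were not tested.

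Replicate numbers did not pair the libraries: deviations of libraries with the same number correlated by -0.0092 on average (from -0.12 to 0.17, 18 pairs). With the replicate block 28 in place of 29 members differed among the lines, and the 12 counts of called members were the same as without it. DESeq2 also gave the same 12 counts. Standard errors of the log2 differences limit what could be seen: FASN between Splice del and C321fs cells did not pass at 0.33 with a standard error of 0.086.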
